A study of Mus musculus with 36 samples.

Results

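The mitochondrial ribosome is the separate translation machine of the mitochondrion. It makes the few membrane proteins of the respiratory chain that mitochondrial DNA encodes. Its RNAs are transcribed inside the organelle, while all its proteins are encoded in the nucleus, made in the cytosol and imported, so a working particle needs both genomes. Fat cells fill with mitochondria as they form, and the genes of this ribosome are among those that cells can raise when they build more of the organelle.

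The 78 genes described here were those whose mouse symbol begins with Mrpl or Mrps and a number, without pseudogene symbols, among 52505 genes of the expression table, 51633 of which had a symbol. Of the 78, 51 encode proteins of the large subunit, which forms the peptide bonds, and 26 encode proteins of the small subunit, which reads the mRNA. Mrps36 was put in neither, because its protein is now held to belong to the 2-oxoglutarate dehydrogenase complex. By the unified names of ribosomal proteins, 46 have a counterpart in bacteria and 31 are named as mitochondria-specific. Mrps18a and Mrps30 carry a small-subunit symbol but sit in the large subunit and were counted there. The filter on low values (a mean of at least 1 FPKM, fragments scaled to gene length and to the reads of the library, over all libraries) was passed by 77 of the 78. The gene it removed, Mrpl53, was listed at 0 in every library, and Ccdc142, which overlaps it, reached a group mean of at most 0.0488 FPKM.

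The cells were of 3T3-L1, a mouse preadipocyte line that turns into fat cells under an adipogenic cocktail. The series compared wild-type cells (WT) with cells labelled zfp217-/- (KO), at day 0 and at day 2 of the cocktail, which held dexamethasone, isobutyl-methylxanthine, insulin and indometacin. Each of the 4 groups had 3 RNA-seq libraries of total RNA, and 24 m6A immunoprecipitation and input samples of the series were not analysed here. The labels do not say whether the libraries came from separate cultures or whether the knockout is a single clone, so p-values measure the spread between these libraries, which may be technical.

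Library totals recovered from the values ran from 18073258 to 23114994 reads. Zfp217, a zinc finger transcription factor, was at 21.7, 21.9 and 22.3 FPKM in WT and at 25.2, 25.8 and 26.9 FPKM in KO at day 0. At day 2 it was at 14.6, 15.3 and 15.3 FPKM in WT and at 21.7, 23.4 and 22.7 FPKM in KO. The level thus went against the label, with every library labelled KO above every WT library of its day (exact permutation test, 2-sided, p = 0.1 at each day, the smallest that 3 against 3 allows), and the values do not show whether the message is intact. WT and KO are used below only as the names of the labels. The 7 markers of fat cells summed to 68.4 ± 2.52 FPKM in WT at day 0 and to 8273 ± 103 at day 2 (SD, n = 3). In the libraries labelled KO the same sum was 197 ± 6.4 and 369 ± 6.55 FPKM. The 8 preadipocyte markers summed to 9640 ± 146 FPKM in WT and 20276 ± 327 in KO at day 0, and to 1067 ± 11.4 and 6904 ± 82.1 at day 2. The sums rest on few genes at day 0: the adipocyte sum was mostly Lpl (55.9 FPKM in WT and 190 in KO), with 1 marker higher, Pparg lower and 5 of 7 not past the test. Of the 8 preadipocyte markers 5 were higher in KO at day 0, Col1a1 and Col1a2 leading the sum. Vim was lower, as was Cd34 (3.94 FPKM in WT and 0.28 in KO). At day 2, all 7 adipocyte markers were lower in KO and 7 of 8 preadipocyte markers higher. The part of these differences in the results below was not tested. In bulk RNA, fewer cells of a type and less RNA per cell cannot be told apart. Summed markers of endothelium, epithelium and muscle stayed at or under 1.12 FPKM in every library, with Epcam and Myog at 0 in all 12. The 6 macrophage markers summed to 3.01 to 16.8 FPKM, and this sum was highest in KO at day 0. Only 2 of the 6, Lyz2 and Cd68, passed the filter on low values. At day 0, 1 of these was higher in KO and the other did not pass the test. WT day 0 replicate 3 stood apart in the RNAs of the mitochondrial ribosome itself, given below, though not in its proteins.

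Promoters of some of these genes are shown first, to set the letters of known motifs beside the genes that hold them. RefSeq promoter windows (GRCm38.p6, 250 bases before to 50 after a start) were at hand for 69 members in 75 windows. The motif of the nuclear respiratory factor NRF1 (GCGC, any base, then TGCGC) stood on either strand in 17.3% of the members' windows, in 10.4% of the windows of genes tested and in 4.6% of all windows. The shares for CCGGAAG, the core bound by ETS factors such as GABP, were 34.7%, 18.4% and 8.86%. AAGATGGCG, a YY1 motif, stood in 10.7%, 3.2% and 1.4% of the same windows. For CACGTG, the E-box of Myc and Usf proteins, the shares were 9.33%, 9.96% and 7.15%. At least 1 of the 4 motifs stood in 60% of the members' windows and in 35.4% of those of genes tested. The first 3 motifs were thus found more often in the members' windows than in those of genes tested, while the E-box was not. Most YY1 motifs of members lay after the start, and only those of Mrpl36 and Mrps11 lay before it. Of the 88 nuclear-encoded respiratory chain genes, 66 had a window, and their 71 windows held the NRF1 motif in 25.4% and the ETS motif in 22.5%. The 77 windows of 65 of the 90 cytosolic ribosomal protein genes held them in 7.79% and 35.1%. The following stretches are the 100 bases before the start on the gene's own strand, with the motif in capitals. They were chosen to show an NRF1 motif (Mrpl12, Mrpl32, and Mrpl17, where it reads on the reverse strand), an ETS motif (Mrpl34, Mrps22, and Mrpl52, where it reads on the reverse strand) and an E-box (Mrpl20). Their positions are chr11:120484537-120484636 (+) for Mrpl12, chr13:14613038-14613137 (-) for Mrpl32, chr7:105811088-105811187 (-) for Mrpl17, chr8:71464826-71464925 (+) for Mrpl34, chr9:98601680-98601779 (-) for Mrps22, chr14:54426809-54426908 (+) for Mrpl52 and chr4:155802778-155802877 (+) for Mrpl20.
Mrpl12: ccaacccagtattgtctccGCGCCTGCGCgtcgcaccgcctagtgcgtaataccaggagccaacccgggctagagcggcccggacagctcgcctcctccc
Mrpl32: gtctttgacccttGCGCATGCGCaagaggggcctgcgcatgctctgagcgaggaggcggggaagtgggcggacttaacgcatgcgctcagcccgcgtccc
Mrpl17: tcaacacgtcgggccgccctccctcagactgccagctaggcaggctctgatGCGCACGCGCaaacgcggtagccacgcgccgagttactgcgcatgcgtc
Mrpl34: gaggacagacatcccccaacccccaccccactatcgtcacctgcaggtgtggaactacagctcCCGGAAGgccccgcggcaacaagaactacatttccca
Mrps22: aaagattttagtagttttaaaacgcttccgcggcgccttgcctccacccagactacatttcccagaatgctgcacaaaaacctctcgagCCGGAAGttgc
Mrpl52: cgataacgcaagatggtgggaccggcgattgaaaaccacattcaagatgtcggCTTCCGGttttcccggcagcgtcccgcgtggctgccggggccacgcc
Mrpl20: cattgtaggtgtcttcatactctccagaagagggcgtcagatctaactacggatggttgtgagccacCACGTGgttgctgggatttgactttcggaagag

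A second feature was a head-to-head arrangement. Of 68 tested members with a window, 21 (30.9%) had a protein-coding gene starting within 500 bases on the other strand, against 13.6% of the 9060 genes tested with a window. Mrpl46 and Mrps11, which encode a protein of each subunit, start 42 bases apart on opposite strands. The 41 bases between their starts (chr7:78783090-78783130, + strand) are printed because they are all that separates the pair, and no motif of the 4 lies in them.
Mrpl46-Mrps11: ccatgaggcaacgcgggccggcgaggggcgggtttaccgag

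The mitochondrial ribosomal protein genes were expressed in all 4 groups, were highest together in WT at day 2, and were low in KO at both days. The 78 genes summed to 3141, 3100 and 3071 FPKM in WT at day 0 and to 4387, 4355 and 4289 at day 2. In KO the sums were 2192, 2225 and 2187 FPKM at day 0 and 2507, 2457 and 2580 at day 2. The 4 groups did not overlap, and the KO cells at day 2 stayed below the WT cells at day 0. Relative to WT, the mean sum in KO was 0.709-fold at day 0 and 0.579-fold at day 2. From day 0 to day 2 it rose 1.4-fold in WT and 1.14-fold in KO. The members made up 0.444% of the summed FPKM of all genes in WT at day 0, 0.63% in WT at day 2, 0.339% in KO at day 0 and 0.376% in KO at day 2.

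**Figure D1:**
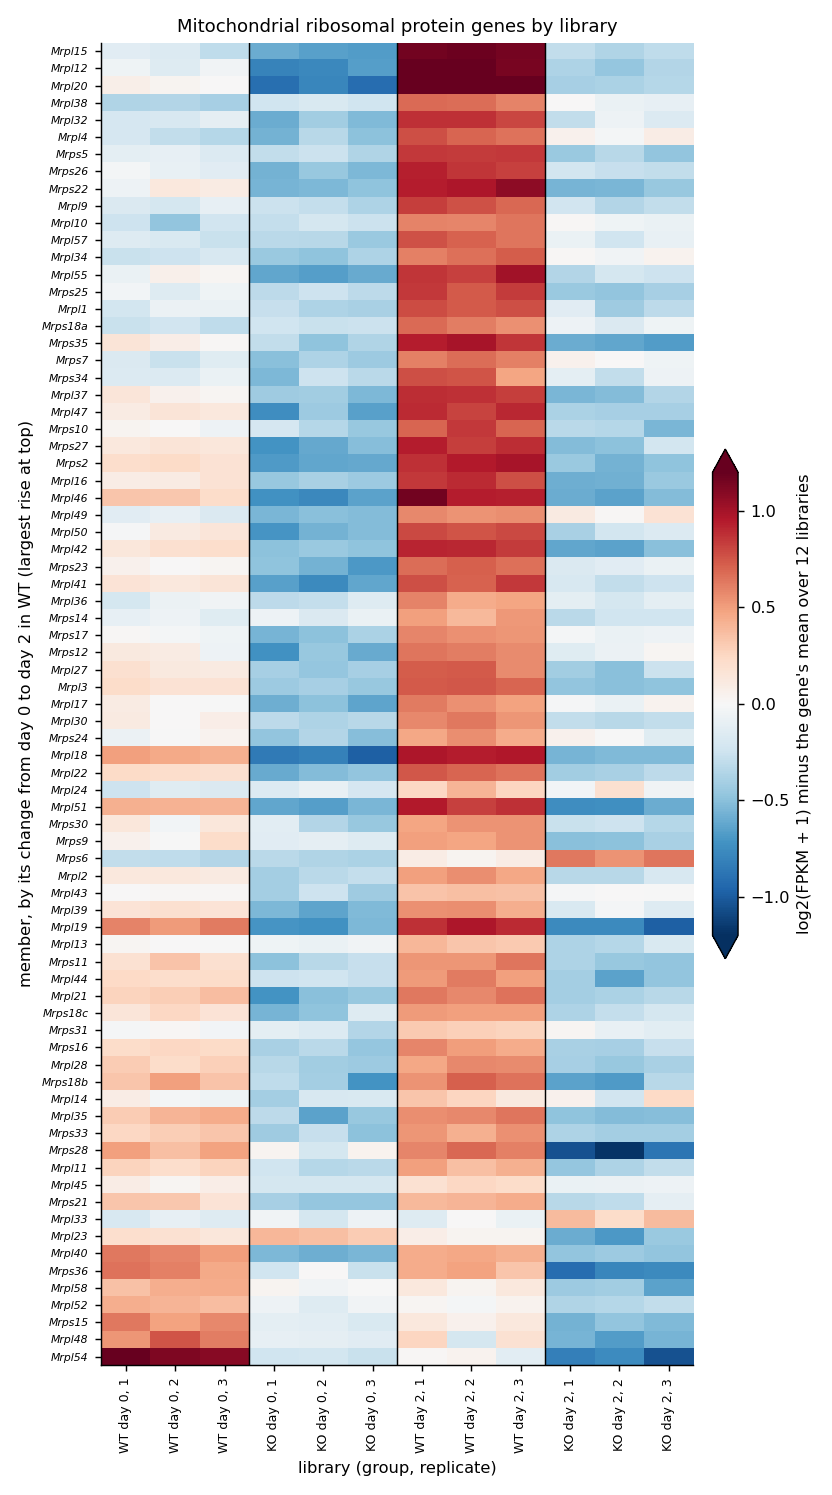
Each row is one of the 77 members past the filter and each column 1 of the 12 libraries, coloured by log2(FPKM + 1) minus the gene's mean over the libraries (red above, blue below, colours saturating beyond the ends of the bar), with rows ordered by the change in WT. Most rows are reddest in WT at day 2, and the rows at the bottom, ending with Mrpl54, are reddest in WT at day 0.

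One by one, 67 of the 77 members had their highest group mean in WT at day 2, and in 66 of these no library of another group reached the WT day 2 libraries, against 20.4% of all genes tested. Another 7 were highest in WT at day 0 (Mrpl40, Mrpl48, Mrpl52, Mrpl54, Mrpl58, Mrps15 and Mrps36), 6 of them with no overlap, against 23.9% of all genes tested. Mrpl23 was highest in KO at day 0, as were 19.3% of all genes tested with no overlap, and Mrpl33 and Mrps6 were highest in KO at day 2, where 10.3% of all genes tested were highest with no overlap. The lowest group was KO at day 0 for 45 members, KO at day 2 for 27 and WT at day 0 for 5. Replicates lay close together, with a median coefficient of variation of 3.59% to 4.92% over members in the 4 groups. Levels between members spanned 25.9-fold in WT at day 0, from 6.27 to 162 FPKM. The 3 highest by mean over all libraries were Mrps6 (207 FPKM), Mrps21 (138 FPKM) and Mrpl52 (119 FPKM), and the 3 lowest were Mrpl1 (7.36 FPKM), Mrpl48 (9.27 FPKM) and Mrpl47 (9.82 FPKM). These levels are per gene length. Mrpl12, whose protein is present in several copies in the particle, had a mean of 25.7 FPKM and was not among the highest.

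**Figure D2:**
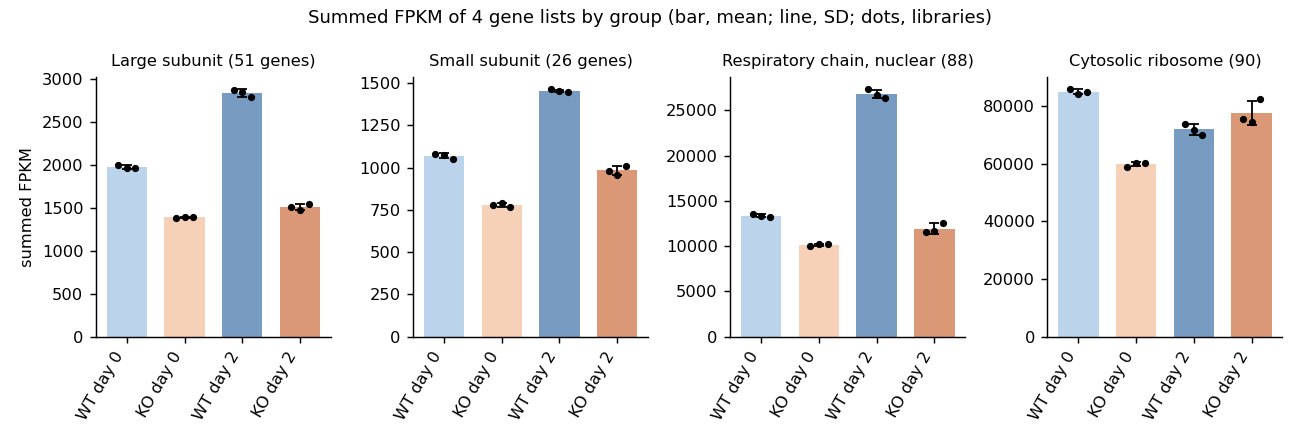
Summed FPKM (vertical axes from 0, a separate scale for each panel) of the large subunit genes, the small subunit genes, the nuclear-encoded respiratory chain genes and the cytosolic ribosomal protein genes in the 4 groups, with bars at the mean, lines for the SD and dots for the 3 libraries. The first 3 panels peak in WT at day 2, while the cytosolic ribosome panel is highest in WT at day 0.

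The first comparison asked how KO differed from WT before the cocktail. Changes are differences on the log2(FPKM + 1) scale, tested with limma across 12961 genes with Benjamini-Hochberg adjustment and a threshold of 0.05. At day 0, 68 of 77 members were lower in KO and 2 were higher, with a median difference of -0.49. Over all genes tested, 44.2% were lower and 38.3% higher, with a median of -0.06. Of the 50 tested large subunit members 43 were lower, as were 24 of 26 small subunit members. Among mitochondria-specific proteins 28 of 30 were lower, and among those with a bacterial counterpart 39 of 46. Without WT day 0 replicate 3, 65 were lower and 2 higher. The count of higher members was 6 under TPM scaling and 8 under quantile normalization.

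Here and in the other comparisons of 2 groups, members named for a large rise or fall were taken from those without overlap. The lack of overlap given for them follows from that choice and adds no support. At day 0 all KO libraries lay below all WT libraries in 67 of 77 members and 5827 of 12961 genes tested. At day 2 they did so in 74 members and 5319 genes. The 6 largest falls at day 0 were in genes of the large subunit. Mrpl54 (chr10:81264722-81266926, GRCm38), which encodes a mitochondria-specific protein, was at 58.7, 55 and 53.9 FPKM in WT and at 20.8, 21.2 and 20.4 FPKM in KO. The libraries of the 2 labels were far apart, and the difference was -1.38 ± 0.07 (SE, adjusted p = 2.47e-09). Mrpl18, the L18 homologue of the central protuberance, was at 70.8, 68.6 and 67.4 FPKM in WT against 27.2, 28.1 and 24.8 FPKM in KO, a 2.58-fold lower mean. All KO libraries again lay far under the WT libraries (difference -1.34 ± 0.04, adjusted p = 1.5e-11). Tcp1, a subunit of the cytosolic chaperonin that starts 238 bases away on the other strand and overlaps Mrpl18, also fell (-1.19, adjusted p = 1.69e-13). The labels do not state whether counting used strand, so reads of such a pair may have been shared.

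Mrpl19, Mrpl40, Mrpl51 and Mrpl46 completed the 6 largest falls at day 0. Mrpl19 went from 14.7 ± 0.608 FPKM in WT to 5.67 ± 0.475 in KO (SD, n = 3), and Mrpl40, another protein of the central protuberance, from 40.7 ± 1.92 to 18 ± 0.331. For Mrpl51 the values were 45.7 ± 0.256 and 22 ± 0.915 FPKM, and for Mrpl46 24.4 ± 1.12 and 11.6 ± 0.625 FPKM. By the choice of members none of the 4 overlapped between labels. All were between 2.08-fold and 2.59-fold lower in KO.

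Mrpl23 and Mrpl38 were the 2 members called higher in KO at day 0. Mrpl23, whose protein lines the mouth of the exit tunnel, was at 35, 34.4 and 33.2 FPKM in WT and at 40.2, 39.1 and 37.5 FPKM in KO. Mrpl38 was at 55.2, 55.5 and 53.7 FPKM in WT and at 60.3, 62.7 and 60.3 FPKM in KO. Every KO library was above every WT library in both genes, but the rises were small, at 0.18 ± 0.05 for Mrpl23 (adjusted p = 0.00753) and 0.15 ± 0.03 for Mrpl38 (adjusted p = 0.00111).

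**Figure D3:**
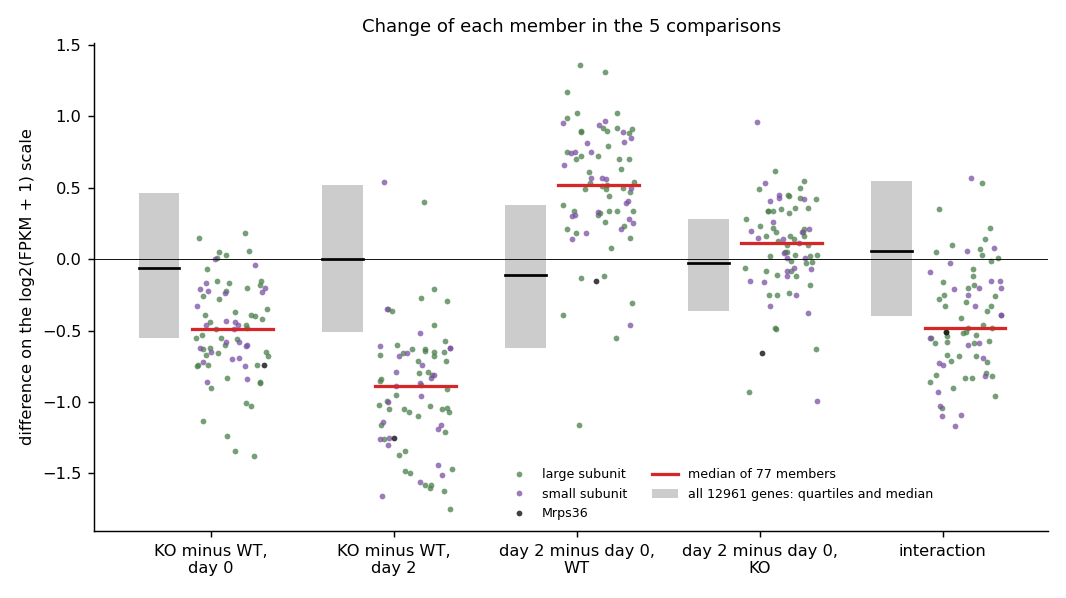
Difference on the log2(FPKM + 1) scale (vertical axis) of each of the 77 members in the 5 comparisons (horizontal axis), large subunit in green, small subunit in purple, Mrps36 in black, with a red line at the members' median; grey bars span the quartiles of all 12961 genes tested and black lines mark their median. The members' medians are -0.49, -0.89, 0.52, 0.11 and -0.48 from left to right.

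At day 2 the gap was wider. KO was lower in 74 of 77 members and higher in 2, with a median of -0.89, while over all genes tested 40.6% were lower, 40.8% were higher and the median was 0.00. Every one of the 30 tested mitochondria-specific members was lower, as were 48 of 50 large subunit and 25 of 26 small subunit members. The member that passed in neither direction was Mrpl14 (-0.21 ± 0.11, adjusted p = 0.0834). Of the members, 67 were lower at both days, as were 27.9% of all genes tested. Across the 77 members the day 0 and day 2 differences, which share no library, had a Pearson correlation of 0.53 and a Spearman correlation of 0.51, and 65 members had the lower value at day 2. Mrpl23 and Mrpl38 changed sides, from higher at day 0 to lower at day 2.

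Mrpl19 fell furthest at day 2. It was at 18.3, 19.6 and 18.6 FPKM in WT and at 5.2, 5.17 and 4.33 FPKM in KO, with no overlap and a 3.84-fold lower mean (-1.75 ± 0.07, adjusted p = 2.1e-10). Mrps28 (chr3:8802146-8923857, GRCm38), of the small subunit, was at 27.2, 29.2 and 27.5 FPKM in WT and at 8.09, 7.31 and 9.19 FPKM in KO. The KO libraries were all under 10 FPKM, and the mean was 3.41-fold lower (-1.66 ± 0.08, adjusted p = 1.67e-09).

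Mrpl12 (chr11:120484637-120488754, GRCm38) encodes the stalk protein that recruits translation factors to the ribosome, and its human protein has also been reported to bind the mitochondrial RNA polymerase. Its promoter is the first sequence printed above. At day 2 it was at 53.5, 55.6 and 49.6 FPKM in WT and at 16.8, 15.7 and 17 FPKM in KO. All 3 KO libraries lay below even the WT libraries of day 0 (21.2, 19.7 and 21.4 FPKM), and the difference at day 2 was -1.62 ± 0.05 (adjusted p = 4.42e-11). Mrpl20, whose bacterial counterpart is needed to assemble the large subunit, was at 181, 182 and 180 FPKM in WT against 58.8, 59.6 and 61.2 FPKM in KO. That 3.02-fold lower mean came with a spread of 1.2 FPKM or less in each group (-1.58 ± 0.03, adjusted p = 9.27e-13). Mrpl46 and Mrpl51 were 3.19-fold and 3.08-fold lower in KO.

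Mrps6 and Mrpl33 went the other way at day 2. Mrps6 was at 213, 204 and 212 FPKM in WT and at 310, 290 and 313 FPKM in KO, so that every KO library was above every WT library (0.54 ± 0.03, adjusted p = 1e-08). At day 0 it was nearly level, at 162, 161 and 156 FPKM in WT and 159, 155 and 153 in KO (-0.04 ± 0.03, adjusted p = 0.318). The locus of Mrps6 (chr16:92058336-92112227, GRCm38) overlaps Slc5a3, the sodium and myo-inositol cotransporter. Slc5a3 was at 26.4 ± 0.724 FPKM in WT and 93.4 ± 1.65 in KO at day 0, and at 67.8 ± 2.48 and 145 ± 5.84 FPKM at day 2. How reads of the shared part were counted is not given in the sources used here, so the Mrps6 level is uncertain and the part of Slc5a3 in it was not tested. Mrpl33 was at 12.5, 14.1 and 13.2 FPKM in WT and at 18.5, 16.5 and 18.5 FPKM in KO at day 2, again with no overlap (0.40 ± 0.06, adjusted p = 7.97e-05). The Mrpl33 locus overlaps Gm38424, whose part in the Mrpl33 value was not tested.

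The response of WT cells to the cocktail was a rise in most members. From day 0 to day 2, 64 of 77 members rose and 7 fell, with a median change of 0.52. Over all genes tested, 34.2% rose and 46.5% fell, with a median of -0.11. The rise took in both subunits, with 42 of 50 large and 22 of 26 small subunit members. It took in both the proteins with a bacterial counterpart (40 of 46) and the mitochondria-specific ones (24 of 30). Without WT day 0 replicate 3 the counts were 64 and 8.

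Mrpl15 rose most, from 22.2, 21.7 and 19.6 FPKM to 55.8, 56.6 and 55.3 FPKM, a 2.64-fold higher mean with no overlap (1.36 ± 0.04, adjusted p = 2.27e-11). Mrpl12 rose 2.55-fold (1.31 ± 0.05, adjusted p = 2.95e-10) and Mrpl20 2.26-fold (1.17 ± 0.03, adjusted p = 1.19e-11), from the values given above. Mrpl32, a protein cut to its mature form by the m-AAA protease before it joins the ribosome, went from 14.2, 14.3 and 15.2 FPKM to 31.1, 31 and 29.5 FPKM. Every day 2 library was above every day 0 library, with a 2.1-fold higher mean (1.02 ± 0.06, adjusted p = 1.16e-08). Mrpl38 rose 2.05-fold and Mrpl4 rose 2-fold.

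In WT, 7 members fell and 6 passed in neither direction. Mrpl54 dropped from 58.7, 55 and 53.9 FPKM to 25, 25.6 and 22.6 FPKM, a 2.29-fold lower mean with no overlap (-1.16 ± 0.07, adjusted p = 1.14e-08). Mrpl58 encodes ICT1, a peptidyl-tRNA hydrolase that frees stalled ribosomes and was built into the large subunit. It went from 20.6, 21.9 and 22.1 FPKM to 17.5, 16.4 and 17.5 FPKM (-0.31 ± 0.06, adjusted p = 0.000286), again without overlap. Mrps15 fell 1.39-fold, Mrpl52, one of the most abundant messages, 1.31-fold, and Mrpl40 1.1-fold. Mrpl48 fell 1.5-fold, from 14.2 ± 1.21 to 9.43 ± 1.74 FPKM, but its pseudogene Mrpl48-ps, at 6.26 FPKM in WT at day 0 and 7.63 FPKM at day 2, is close enough in level that shared reads could matter. Mrpl23 passed at the edge (-0.12 ± 0.05, adjusted p = 0.0482), with adjusted p up to 0.785 under the alternatives, and Mrpl40 was not called under median-of-ratios scaling (-0.02, adjusted p = 0.585).

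In KO the same cocktail moved the members less. From day 0 to day 2, 37 of 77 rose and 17 fell, with a median of 0.11, beside 33.9% and 38.8% of all genes tested and a median of -0.03. The rise took in 26 of 50 large subunit and 11 of 26 small subunit members. Of the 64 members that rose in WT, 33 rose in KO, 22 passed in neither direction there and 9 fell (Mrpl13, Mrpl19, Mrpl42, Mrpl44, Mrps14, Mrps25, Mrps35, Mrps5 and Mrps9). Of the 4429 genes tested that rose in WT, 2330 rose in KO, 1191 passed in neither direction there and 908 fell. Of those that rose in WT, the part that also rose in KO was thus about the same for members as for all genes tested. The part that fell was smaller for members. On the wider base of all genes tested, those in neither direction were 9.19% and those that fell 7.01%. Both genotypes shared 6 falls (Mrpl23, Mrpl48, Mrpl52, Mrpl54, Mrpl58 and Mrps15). Over all genes tested, 18% rose in both and 26.2% fell in both. The changes in WT and KO share no library. Over the 77 members they had a Pearson correlation of 0.53 and a Spearman correlation of 0.43. In 65 members the value was lower in KO. By arithmetic these are the same 65 members that had the lower difference at day 2 above, so the count is not separate support.

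Mrps6 rose most in KO, from 159, 155 and 153 FPKM to 310, 290 and 313 FPKM, a 1.96-fold higher mean (0.96 ± 0.03, adjusted p = 7.84e-11), with the limit on its reads given above. Mrpl49, a large subunit gene that starts 192 bases from Fau on the other strand, rose from 21.8, 22.5 and 22.2 FPKM to 34.9, 32.7 and 36.5 FPKM. The 2 days did not overlap and the rise was 1.56-fold (0.62 ± 0.04, adjusted p = 2.1e-08). Mrpl17 rose 1.48-fold, Mrps12, a protein of the decoding centre, 1.46-fold, Mrpl4 1.43-fold and Mrpl20 1.41-fold. At day 2 in KO these 4 reached 46, 35.6, 54.2 and 59.9 FPKM, beside 47.7, 38.7, 43.2 and 79.9 FPKM in WT at day 0.

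Mrps28 fell most in KO, from 18.2, 15.2 and 18.3 FPKM to 8.09, 7.31 and 9.19 FPKM, with no overlap (-0.99 ± 0.08, adjusted p = 4.02e-07). In WT it was 24.5 ± 1.26 FPKM at day 0 and 28 ± 1.06 at day 2, a difference of 0.18 ± 0.08 that did not pass (adjusted p = 0.0558). Mrpl23 fell in KO from 40.2, 39.1 and 37.5 FPKM to 19.7, 18.3 and 21.9 FPKM, so that of the 4 groups KO was the highest at day 0 and the lowest at day 2 (-0.93 ± 0.05, adjusted p = 1.29e-08). Mrps36, the dehydrogenase subunit, went from 32.4, 38.6 and 31.9 FPKM to 19.9, 21.9 and 22.2 FPKM (-0.66 ± 0.07, adjusted p = 7.54e-06). Mrpl54, Mrpl58 and Mrpl48 fell 1.59-fold, 1.44-fold and 1.47-fold, in the same direction as in WT. Some of the smaller falls did not pass under every setting: Mrpl19 (-0.18, adjusted p = 0.0348), Mrpl42 (-0.12, adjusted p = 0.0143), Mrps25 (-0.15, adjusted p = 0.0135) and Mrps5 (-0.12, adjusted p = 0.0179) each lost the call in at least 3 of the alternatives.

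**Figure D4:**
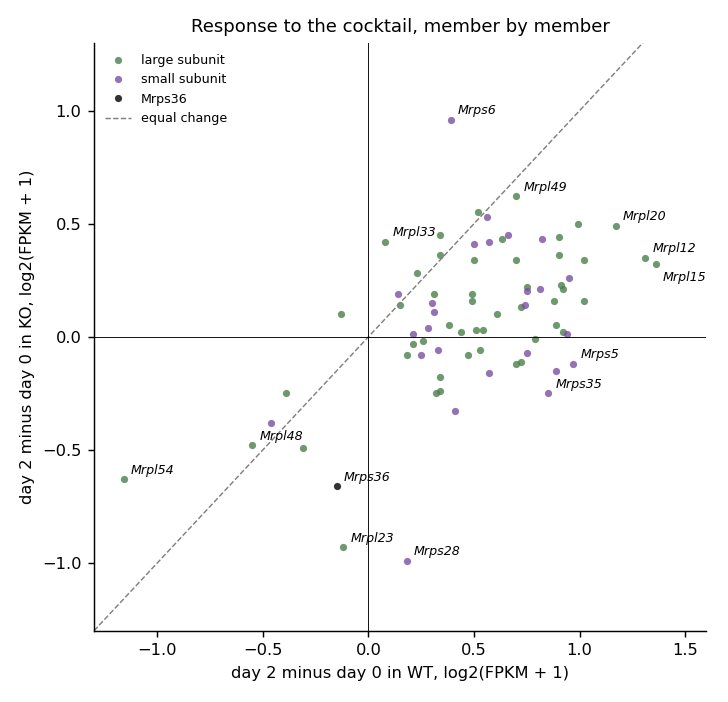
Change from day 0 to day 2 in WT (horizontal axis) and in KO (vertical axis) of the 77 members, both as differences of log2(FPKM + 1), large subunit in green, small subunit in purple, Mrps36 in black, with a dashed line of equal change. In 65 of 77 members the value in KO is below that in WT, and Mrps6 lies farthest above the line.

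The interaction tested the difference between the responses itself, as the change in KO minus the change in WT. By arithmetic this equals the KO difference from WT at day 2 minus that at day 0. The interaction thus repeats the direction of the 65 members above, with a test. It was lower than 0 in 56 of 77 members and higher in 5, with a median of -0.48, while over all genes tested 33% were lower, 40.8% higher and the median was 0.06. Without WT day 0 replicate 3 the counts were 55 and 5. By subunit, 37 of 50 large and 18 of 26 small subunit members were lower, with medians of -0.48 and -0.39.

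Mrps28 (-1.17 ± 0.11, adjusted p = 1.89e-06), Mrps35 (-1.10 ± 0.08, adjusted p = 1.12e-07), Mrps5 (-1.09 ± 0.05, adjusted p = 4.23e-09) and Mrpl15 (-1.04 ± 0.06, adjusted p = 1.43e-08) had the lowest interactions. Mrps5, whose bacterial counterpart bears on the accuracy of translation, shows the pattern plainly. It went from 33.7, 34 and 32.5 FPKM to 66.6, 66.1 and 66.6 FPKM in WT and from 29.6, 30.4 and 28.3 FPKM to 26.6, 28.8 and 26 FPKM in KO. The WT libraries rose with no overlap, while those of KO overlapped between the days. Mrps35, a mitochondria-specific protein, went from 12.5 ± 0.655 to 23.3 ± 1.12 FPKM in WT and from 8.84 ± 0.631 to 7.24 ± 0.209 FPKM in KO. The 5 members with a positive interaction were Mrps6 (0.57 ± 0.04, adjusted p = 2.39e-07), Mrpl54 (0.53 ± 0.10, adjusted p = 0.000421), Mrpl33 (0.35 ± 0.09, adjusted p = 0.00368), Mrpl40 (0.22 ± 0.05, adjusted p = 0.00122) and Mrpl52 (0.14 ± 0.05, adjusted p = 0.0152). Of these Mrpl54 and Mrpl52 fell in both genotypes, and fell less in KO. Mrpl33 was not called under quantile normalization (0.19, adjusted p = 0.0666), nor was Mrpl52 under TPM or median-of-ratios scaling (0.08 in both).

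**Figure D5:**
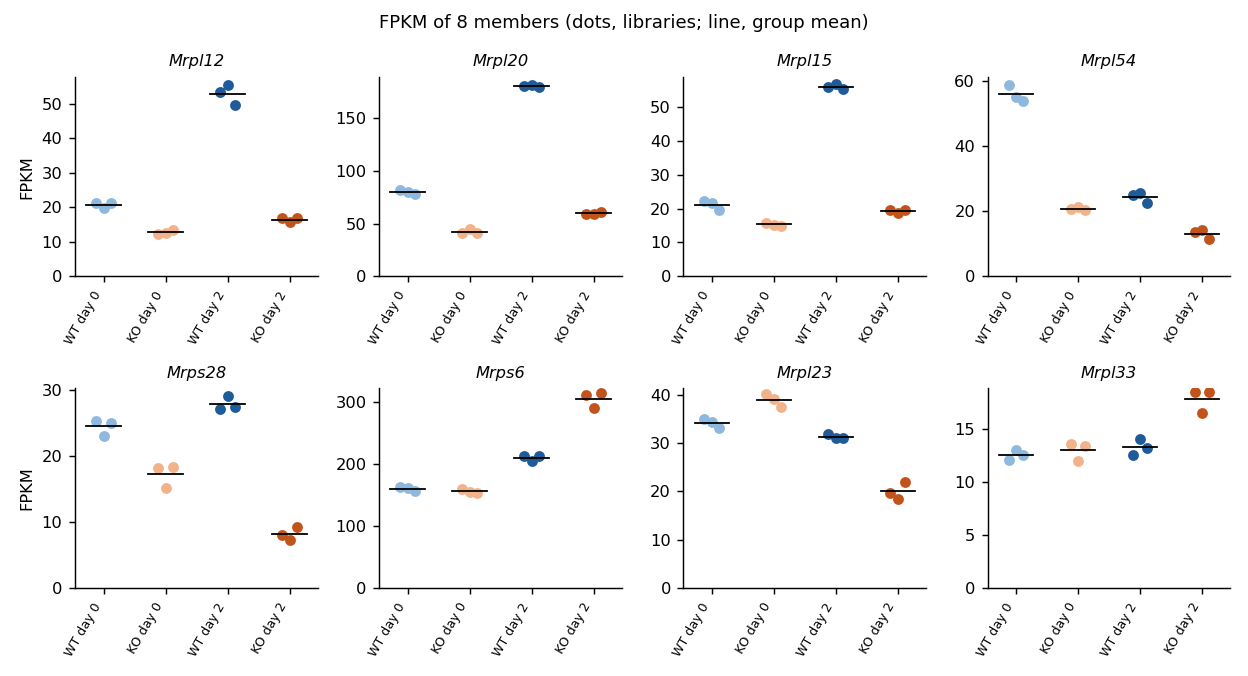
FPKM (vertical axes from 0) of 8 members in the 12 libraries, dots for libraries and a line at each group mean. Mrpl12, Mrpl20 and Mrpl15 stand highest in WT at day 2, Mrpl54 in WT at day 0, Mrpl23 in KO at day 0, and Mrps6 and Mrpl33 in KO at day 2, while Mrps28 is lowest in KO at day 2.

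Mrps18a, Mrps18b and Mrps18c are paralogues that all descend from the bacterial S18 protein, and their messages differed. By the unified names only Mrps18c was counted with a bacterial counterpart, and Mrps18a and Mrps18b were counted as mitochondria-specific. Mrps18a, which sits in the large subunit, was at 43.5, 44.9 and 42.5 FPKM in WT and at 44.6, 43.7 and 43.8 FPKM in KO at day 0, with overlapping libraries (0.01 ± 0.04, adjusted p = 0.786), though it was called higher under TPM scaling (0.12) and quantile normalization (0.15). At day 2 it was at 84.8, 81.2 and 77.6 FPKM in WT and 50.6, 46.5 and 50.8 FPKM in KO, after a 1.86-fold rise in WT and a 1.12-fold rise in KO (interaction -0.72 ± 0.06, adjusted p = 2.51e-07). Mrps18b was lower in KO at both days, at 27.8 ± 1.82 against 14.9 ± 2.31 FPKM (-0.86 ± 0.11, adjusted p = 1.46e-05) and at 33.2 ± 2.05 against 14.1 ± 2.02 FPKM (-1.19 ± 0.11, adjusted p = 7.57e-07). Mrps18c, at 15.6 ± 0.548 against 10.2 ± 1.72 FPKM and 19.6 ± 0.182 against 11 ± 0.671 FPKM, was also lower at both days (-0.58 ± 0.09, adjusted p = 4.75e-05, and -0.79 ± 0.09, adjusted p = 3.29e-06). The interactions of Mrps18b (-0.33 ± 0.16, adjusted p = 0.0793, 95% interval -0.67 to 0.02) and Mrps18c (-0.20 ± 0.12, adjusted p = 0.149, 95% interval -0.47 to 0.06) did not pass, but each passed under some alternatives, at adjusted p = 0.0101 to 0.0438 for Mrps18b and 0.0422 for Mrps18c. From day 0 to day 2, Mrps18c rose in WT (0.31 ± 0.09, adjusted p = 0.00543) and did not pass in KO (0.11 ± 0.09, adjusted p = 0.281). Mrps18b passed in neither genotype (0.25 ± 0.11, adjusted p = 0.0557, in WT and -0.08 ± 0.11, adjusted p = 0.548, in KO), though its WT libraries did not overlap between the days and 11 alternatives called the WT rise, at adjusted p = 0.00601 to 0.0495. Without KO day 0 replicate 3, Mrps18c rose in KO as well (0.23, adjusted p = 0.0024).

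The summed FPKM of large subunit genes over that of small subunit genes was 1.85 ± 0.0202 in WT at day 0, 1.95 ± 0.0202 in WT at day 2, 1.78 ± 0.0288 in KO at day 0 and 1.54 ± 0.00323 in KO at day 2 (SD, n = 3). The low ratio in KO at day 2 came with Mrps6, which alone made up 30.9% ± 0.675 of the small subunit sum there and 14.9% ± 0.102 in WT at day 0. Without Mrps6 the ratios were 2.17, 2.28, 2.23 and 2.22 in the same order.

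Genome position and overlap were checked for the members. They lie on 17 of the 19 autosomes, with none on chromosomes 12 and 18 or on X. On chromosome 6, where all other genes tested had a median difference of -0.40 between KO and WT at day 0, the 6 members had a median of -0.77. Without them the other 71 members had a median of -0.49 at day 0 and -0.85 at day 2. On chromosome 8 the other genes had a median of 0.36 at day 0 and the 2 members (Mrpl34 and Mrps31) one of -0.20. Of the 78 members, 25 overlap another annotated gene. Among the 53 tested members that overlap none, 48 were lower in KO at day 0, 53 were lower at day 2, and 45 rose in WT. The shares of all genes tested were 44.2%, 40.6% and 34.2%. From day 0 to day 2 in KO, 23 of the 53 rose and 11 fell, beside 33.9% and 38.8% of all genes tested. Mrps6 and Mrpl33, the members higher in KO at day 2, both overlap another gene.

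Partners across a shared promoter did not always follow the member. Of the 21 members with a head-to-head coding neighbour, both genes passed in the same direction in 15 cases for KO against WT at day 0, 14 at day 2, 11 for the WT response and 7 for the KO response, and in opposite directions in 5, 3, 7 and 3. As shares of the 21 pairs, the same direction took 71.4%, 66.7%, 52.4% and 33.3%. Over 1246 head-to-head pairs of any tested gene and a coding neighbour, the shares were 37.1%, 45.2%, 36.4% and 29.4%. Opposite directions took 23.8%, 14.3%, 33.3% and 14.3%, beside 27.8%, 19.8%, 23.4% and 16.5%. The 1246 include neighbours that were not tested and so could not pass, while all neighbours of the 21 were tested. The shares over the 1246 are therefore lowered, and the 2 sets are not on an equal base. Mrpl46 and Mrps11, which are each other's neighbour and count as 2 of the 21, were both lower in KO, with differences of -1.01 and -0.61 at day 0, and both passed again at day 2. Mrpl47 and Ndufb5, a subunit of respiratory complex I, rose together in WT (0.75 and 0.80, adjusted p for Ndufb5 = 9.25e-09). By contrast, Mrpl57 rose in WT by 0.91 while Ska3, a kinetochore gene that starts 76 bases away and overlaps it, fell (-1.38, adjusted p = 4.62e-09). These pairs were chosen after their values were seen.

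Medians of members with and without a promoter motif were compared as a description. At day 2 the median difference of KO from WT was -0.88 over 13 tested members with the NRF1 motif and -0.91 over 55 without, and -0.84 over 25 members with the ETS motif and -0.96 over 43 without. The WT response had medians of 0.51 and 0.53 for the NRF1 motif and 0.49 and 0.57 for the ETS motif. Other comparisons had wider gaps, with interaction medians of -0.57 with and -0.36 without the NRF1 motif, and of -0.21 with and -0.51 without the ETS motif. At day 0 the medians were -0.40 and -0.58 for the NRF1 motif and -0.60 and -0.46 for the ETS motif. The 8 members with the YY1 motif had a day 2 median of -1.05 against -0.89 for the 60 without, and the 5 with an E-box one of -0.79 against -0.91 for the 63 without.

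The mitochondrial ribosome has subunits whose symbols do not begin with Mrpl or Mrps, and 5 of them were followed. All 5 were lower in KO at both days, as were 27.9% of all genes tested. Ptcd3, a pentatricopeptide protein at the mRNA entrance of the small subunit, was at 51.3, 54.1 and 53.7 FPKM in WT at day 0 and 131, 127 and 135 at day 2, against 24.8, 22.8 and 25 FPKM and 38.5, 39.1 and 34.9 FPKM in KO. The WT day 2 libraries stood apart from all others, and the interaction was -0.68 ± 0.07 (adjusted p = 1.91e-06). Dap3, the GTP-binding protein of the small subunit, rose in both genotypes (0.48 ± 0.03 in WT and 0.67 ± 0.03 in KO) with a positive interaction of 0.19 ± 0.04 (adjusted p = 0.00149). Gadd45gip1 fell in both (-0.46 ± 0.08, adjusted p = 0.000152, and -0.24 ± 0.08, adjusted p = 0.0146). Chchd1 fell in KO (-0.27 ± 0.05, adjusted p = 0.000204) and did not pass in WT (0.05 ± 0.05, adjusted p = 0.352), and Aurkaip1 passed in neither (0.08 ± 0.04, adjusted p = 0.118, and -0.06 ± 0.04, adjusted p = 0.271).

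Factors that build the mitochondrial ribosome were followed as a list of 26. At day 2, 22 were lower in KO and 3 higher (median -0.62), beside 40.6% and 40.8% of all genes tested. In WT 19 rose and 5 fell from day 0 to day 2 (median 0.28), beside 34.2% and 46.5%. Rpusd3, a pseudouridine synthase, rose in WT from 1.77, 2.17 and 1.54 FPKM to 13.2, 13.7 and 12.5 FPKM and in KO from 1.31, 1.95 and 0.928 to 2.75, 3.03 and 3.04 FPKM (interaction -1.59 ± 0.19, adjusted p = 9.53e-06). Mpv17l2, an inner membrane protein needed for assembly, was higher in KO at day 2, at 91.6, 93.4 and 95.8 FPKM against 59.2, 62.1 and 62.3 FPKM (0.61 ± 0.03, adjusted p = 5.17e-09). All its KO libraries were above all WT libraries of that day.

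Translation factors of the mitochondrion were followed as well. Of 14 tested, 12 rose in WT and 2 did not pass (median 0.51), and 13 were lower in KO at day 2 (median -0.87). For this and the next lists, 34.2% of all genes tested rose and 46.5% fell in WT. At day 2, 40.6% of all genes tested were lower and 40.8% higher in KO. Gfm1, elongation factor G of mitochondria, was at 33.9, 33.3 and 35.9 FPKM in WT at day 0 and 76.4, 80.8 and 78.1 at day 2, and at 16.6, 16.8 and 16.2 FPKM and 19.7, 19.1 and 19.9 FPKM in KO. The 4 groups did not overlap, and the difference of KO from WT at day 2 was -1.95 ± 0.03 (adjusted p = 1.43e-13). Lrpprc, which keeps mitochondrial mRNAs stable, was low in KO at both days (-1.27 ± 0.04 and -1.40 ± 0.04) and rose by only 0.14 ± 0.04 in WT. Among the 17 mitochondrial tRNA synthetases, the day 2 test gave 15 lower and 1 higher in KO, and 13 rose and 1 fell in WT. For 12 genes of mitochondrial DNA transcription and replication the same test gave 9 lower, and the other 3 did not pass. Tfam, which packs mitochondrial DNA, was lower in KO at both days (-0.69 and -0.76) and fell in WT (-0.17 ± 0.05, adjusted p = 0.00764).

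Of 9 nuclear regulators of mitochondrial genes, 7 were lower and 2 higher in KO at day 2, beside 40.6% and 40.8% of all genes tested. In WT 4 rose and 4 fell from day 0 to day 2. These shares of 44.4% each were near those of all genes tested, 34.2% and 46.5%. Myc, a transcription factor that drives growth and ribosome genes, was at 53.7, 53.1 and 54.3 FPKM in WT and 10.9, 10.8 and 10.2 in KO at day 0, and at 172, 172 and 161 and then 68, 67.4 and 66.8 FPKM at day 2. KO was lower at both days without overlap (-2.23 ± 0.03 and -1.31 ± 0.03), and the rise was larger in KO than in WT (interaction 0.92 ± 0.04, adjusted p = 2.51e-09). Ppargc1a, the PGC-1alpha coactivator, was higher in KO at day 0 (1.31 ± 0.07) and lower at day 2 (-1.23 ± 0.07), with an interaction of -2.54 ± 0.10 (adjusted p = 3.42e-10). Nrf1 was lower in KO at both days (-0.71 and -0.57) and fell in WT (-0.28), and Gabpa, the GABP subunit that binds the ETS motif, was lower at both days (-0.34 and -0.70) and did not pass in WT (-0.01). Ppargc1b, the PGC-1beta coactivator, was at 1.35, 1.57 and 1.75 FPKM in WT at day 0 and 34.4, 36.3 and 37.9 at day 2, and in KO at 0.361, 0.417 and 0.289 and then 1.77, 2.31 and 1.5 FPKM. It rose steeply in WT, and in KO at day 2 it reached about the level of WT at day 0 (interaction -2.80 ± 0.14, adjusted p = 4.13e-09). Esrra, a nuclear receptor that works with PGC-1 coactivators, rose by 1.78 in WT and 0.72 in KO on the log2 scale. Whether any of these changes bears on the members was not tested.

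Cytosolic ribosomal protein genes were set beside the members as the other ribosome of the cell. At day 0 they too were lower in KO, in 73 of 84 tested (median -0.57), beside 44.2% of all genes tested. At day 2 they were not, with 33 higher and 19 lower (median 0.06), beside 40.8% and 40.6% of all genes tested. In WT 55 of the 84 fell and 4 rose from day 0 to day 2, beside 46.5% and 34.2% of all genes tested. In KO 73 rose and 1 fell, beside 33.9% and 38.8%. The interaction was higher than 0 in 71 and lower in 1 (median 0.60), against 5 and 56 of the 77 members. Over all genes tested it was higher in 40.8% and lower in 33%. Rpl10, for example, was at 1506, 1515 and 1502 FPKM in WT at day 0 and 1016, 1021 and 1015 at day 2, and in KO at 1187, 1191 and 1173 and then 1507, 1462 and 1517 FPKM. Its libraries fell in WT and rose in KO without overlap (interaction 0.90 ± 0.03, adjusted p = 4.98e-11).

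The nuclear-encoded respiratory chain genes, whose proteins assemble with the products of the mitochondrial ribosome, had summed levels in the same order of groups as the members. Of 80 tested, 78 rose in WT (median 0.94) and 77 were lower in KO at day 2 (median -1.13), beside medians of 0.52 and -0.89 over the members. The shares of all genes tested were 34.2% and 40.6%. Their summed FPKM rose 2-fold in WT and 1.18-fold in KO. Uqcrc2, a core subunit of complex III, was at 100, 101 and 105 FPKM in WT at day 0 and 304, 299 and 305 at day 2, and in KO at 75, 78 and 75.4 and then 84.4, 83.1 and 82.8 FPKM. The WT day 2 libraries stood far above all others (interaction -1.43 ± 0.03, adjusted p = 4.48e-12).

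The RNAs at the core of the mitochondrial ribosome, mt-Rnr1 of the small and mt-Rnr2 of the large subunit, gave values that depended on the library. Summed, they were at 12.6, 12 and 541 FPKM in WT at day 0, 765, 746 and 771 in KO at day 0, 25.8, 25.4 and 28 in WT at day 2 and 27.8, 36.4 and 34.3 in KO at day 2. WT day 0 replicate 3 was near the KO day 0 level and far from its own group. Lars2, the mitochondrial leucyl-tRNA synthetase, split the same way, at 5.45, 6.24 and 99.5 FPKM in WT at day 0 and 122, 107 and 118 in KO at day 0. The protein genes did not split this way, with summed FPKM of 3141, 3100 and 3071 in the same 3 WT libraries. The 13 mRNAs of mitochondrial DNA summed to 24222 ± 6397 FPKM in WT and 27865 ± 3471 in KO at day 0, and to 32853 ± 3280 and 33705 ± 1730 at day 2, so that the sums of the labels overlapped at each day. By gene, 7 of the 13 were higher in KO at day 0 and 6 did not pass (median 0.36), beside 38.3% of all genes tested that were higher. At day 2, 4 were higher and 2 lower (median -0.02), beside 40.8% and 40.6%.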

How the data were processed

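RNA-seq of 12 libraries was analysed. The deposited values are FPKM per gene, made by the authors with HTSeq 0.6.1 and TopHat2 2.0.12 among the tools and mm10 as the build, per the submitters' processing notes. For annotation and strand, nothing is given in the sources used here. After scaling by relative library totals, each gene's values are whole multiples of 1 step (100% of 30916 genes above 0, tolerance 0.001 read), which gave the library totals. A gene above 0 in 1 library meets this by construction, and 16215 genes were above 0 in all libraries. Genes averaging 1 FPKM or more over the libraries were fitted as log2(FPKM + 1) with limma 3.58.1 in R 4.3.3 (group means, variance trend, 8 residual degrees of freedom, 2-sided, Benjamini-Hochberg over 12961 genes, threshold 0.05). Differences on this scale understate changes of low genes. The fit was checked on simulated data. Members and lists were chosen with earlier results of these data known. Named members were, per comparison, the 6 largest rises and 6 largest falls past the threshold with no overlap between groups (interaction: 4 and 4), members called against the median's direction, the Mrps18 paralogues, and the 3 highest and 3 lowest by mean; of other lists, up to 4 genes with the smallest adjusted p. Further genes were chosen after their values were seen. Alternatives were other pseudocounts, filters, scalings and fits, voom on recovered reads, a replicate block, and each library left out.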

Additional observations from a re-analysis of the deposited data

Results flagged for a closer look

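The change from day 0 to day 2 differed between the libraries labelled KO and WT, by a test of the difference itself (limma interaction, Benjamini-Hochberg adjusted). Of 77 members tested, 5 had a higher and 56 a lower value in KO. Over all genes tested, 40.8% were higher and 33% lower. Among the named members the interaction was 0.57 for Mrps6, 0.53 for Mrpl54, 0.35 for Mrpl33 and 0.22 for Mrpl40. It was -1.17 for Mrps28, -1.10 for Mrps35, -1.09 for Mrps5 and -1.04 for Mrpl15. For Mrps6, the overlapping gene Slc5a3 had an interaction of -0.70, and its part in the Mrps6 value was not tested.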

How the results depend on the processing

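The counts of members called stayed within 1.5 times of those reported under every alternative run, except members higher in KO at day 0, which numbered 6 under TPM scaling and 8 under quantile normalization against 2. Leaving out 1 library gave 2 to 2 higher and 64 to 69 lower at day 0, 2 to 2 and 74 to 75 at day 2, 64 to 68 and 6 to 8 for the WT response, 34 to 37 and 14 to 18 for the KO response, and 5 to 5 and 53 to 57 for the interaction. Directions reversed for Mrps18a, KO against WT at day 0, without WT day 0 replicate 3 (-0.01, adjusted p = 0.907; up to 0.03 with another library left out), and for Mrps18b, day 2 against day 0 in KO, without KO day 0 replicate 1 (0.01, adjusted p = 0.945; down to -0.20 likewise). Neither had passed the test, and the cause was not tested. Quantile normalization moved the median of all genes in the WT response by 0.12, and the members' median relative to it was 0.53 against 0.63. For KO against WT at day 0, the members' median of -0.49 became -0.4 under TPM scaling, -0.41 under median-of-ratios scaling and -0.39 under quantile normalization. Relative to the median of all genes it was -0.43 as reported, and -0.44, -0.42 and -0.40 under these settings.

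Replicate numbers did not pair the libraries: same-numbered libraries correlated at -0.055 to 0.087, and 6 of 12 correlated best with their own number. With a replicate block the higher and lower counts were 2 and 66 at day 0, 2 and 74 at day 2, 65 and 6 in WT, 37 and 16 in KO, and 5 and 55 for the interaction. Depth limits the low members, the lowest of which, Mrps18c, had 78 reads in 1 library.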
